A study of Mus musculus with 6 samples.

Results

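The MAP kinase phosphatases of the Dusp family were described in the motor cortex of SOD1G93A mice, as 9 named genes (Dusp1, Dusp4, Dusp5, Dusp6, Dusp7, Dusp8, Dusp10, Dusp14 and Dusp16) of the 33182 genes in the deposited table. Members were taken by gene name, and the family was selected on measured values of the ultrasound comparison itself, so the members' differences between groups are given as a description without a test. SOD1G93A mice carry a mutant human SOD1 transgene and are a model of amyotrophic lateral sclerosis. The groups were 3 libraries of SOD1G93A mice after ultrasound treatment, which the series calls low-intensity pulsed ultrasound, and 3 libraries of SOD1G93A control mice, all from day 120. Both groups therefore carry the transgene. Strain background, sex, ultrasound schedule and the treatment given to controls are not stated in the sources used here, nor is it stated that each library is a separate animal, so errors describe the spread between libraries.

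MAP kinases (ERK, JNK and p38) are switched on by phosphorylation of a threonine and a tyrosine in their activation loop, and dual-specificity phosphatases switch them off by removing both phosphates. Several of these phosphatases are themselves induced by the kinases they act on, which makes them a negative feedback. In the cortex, neuronal activity and growth factors induce members such as Dusp1, Dusp5 and Dusp6 together with immediate early genes. The typical members fall into a nuclear inducible class (Dusp1, Dusp4, Dusp5), a cytoplasmic class selective for ERK (Dusp6, Dusp7) and a class that prefers JNK and p38 (Dusp8, Dusp10, Dusp16). Dusp14 is a small atypical member that lacks the amino-terminal kinase-binding domain.

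The promoters of 4 members are shown because their levels behaved differently across the libraries: Dusp1 and Dusp5 spanned the widest ranges, Dusp8 the narrowest, and Dusp16 separated the groups. Each sequence runs from 250 bases before to 50 bases after the RefSeq gene start on GRCm38.p6, read on the gene's strand, and 8 of the 9 members matched an entry (not Dusp4). Capitals mark the cAMP response element core TGACG on either strand, which covers the full element TGACGTCA, and the CArG box bound by serum response factor. Dusp1 is at chr17:26508423-26508722 (minus strand), Dusp5 at chr19:53528895-53529194 (plus strand), Dusp8 at chr7:142095235-142095534 (minus strand) and Dusp16 at chr6:134792579-134792878 (minus strand).
Dusp1: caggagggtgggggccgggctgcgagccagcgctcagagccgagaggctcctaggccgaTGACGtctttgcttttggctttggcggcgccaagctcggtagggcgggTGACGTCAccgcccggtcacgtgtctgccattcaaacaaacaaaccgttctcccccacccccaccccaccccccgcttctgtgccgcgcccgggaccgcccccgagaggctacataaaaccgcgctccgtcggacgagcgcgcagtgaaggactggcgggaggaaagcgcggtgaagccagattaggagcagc
Dusp5: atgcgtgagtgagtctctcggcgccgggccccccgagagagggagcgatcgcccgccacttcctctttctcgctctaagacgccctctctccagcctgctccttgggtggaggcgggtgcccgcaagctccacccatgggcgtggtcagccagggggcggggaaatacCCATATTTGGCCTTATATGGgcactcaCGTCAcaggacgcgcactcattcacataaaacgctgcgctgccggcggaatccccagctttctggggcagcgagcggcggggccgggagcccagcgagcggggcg
Dusp8: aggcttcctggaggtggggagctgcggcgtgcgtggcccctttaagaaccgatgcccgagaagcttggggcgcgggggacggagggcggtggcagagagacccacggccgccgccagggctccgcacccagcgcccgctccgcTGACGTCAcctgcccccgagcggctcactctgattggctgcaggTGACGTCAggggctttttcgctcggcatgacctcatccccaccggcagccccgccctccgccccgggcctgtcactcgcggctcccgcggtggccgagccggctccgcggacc
Dusp16: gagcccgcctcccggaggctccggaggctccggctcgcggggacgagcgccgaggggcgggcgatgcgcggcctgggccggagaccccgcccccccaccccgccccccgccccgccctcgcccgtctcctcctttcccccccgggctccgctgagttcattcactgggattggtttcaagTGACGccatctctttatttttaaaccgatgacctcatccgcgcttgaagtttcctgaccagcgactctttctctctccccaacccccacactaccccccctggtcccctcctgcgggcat

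The full element TGACGTCA was found in the windows of 2 of the 8 matched members, Dusp1 and Dusp8, and in 1.79% of all 32851 promoter windows. Dusp1 held 1 copy, whose first base lies 143 bases before the start, and a further TGACG core at 191 bases. Dusp8 held 2 copies, at 107 and 63 bases before the start. Dusp5 held 2 CArG boxes next to each other, at 82 and 72 bases, and a TGACG core at 55 bases, and was the only matched member with a CArG box, a motif present in 1.63% of all windows. Dusp16 held 1 TGACG core at 70 bases and no full element, with the core in 20.8% of all windows. No match to TATAAA (13.6% of all windows) or to the AP-1 motif TGANTCA (7.81%) was found in these 8 windows, while GGGCGG, the GC box, was found in 7 of them and in 35.7% of all windows. All motifs were searched on both strands, and GGGCGG is not capitalised above. These matches describe the letters of a window and were not tested for binding.

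Total counts per library ranged from 42726633 to 45885619 in the ultrasound group and from 38202541 to 60088636 in controls, and 18S ribosomal RNA took 0.655% to 9.18% of them in the ultrasound group and 0.561% to 4.68% in controls. Excitatory neuron markers, which the cortex should express, were detected in every library (6 of 6), with summed levels of 612 to 633 FPKM in ultrasound libraries and 486 to 619 FPKM in controls. Control 3 stood apart through olfactory bulb markers, whose sum was 1.37 to 2.98 FPKM in ultrasound libraries, 3.13 and 1.82 FPKM in controls 1 and 2 and 62.0 FPKM in control 3. Choroid plexus markers summed to 9.54, 14.9 and 243 FPKM in ultrasound libraries 1 to 3, against 2.72 to 8.93 FPKM in controls. Ttr alone made up 7.08, 12.7 and 235 FPKM of these ultrasound sums. All 4 tested choroid plexus markers had a higher estimate with ultrasound, but only for Ttr did the groups not overlap. FPKM, as the authors deposited it, corrects counts for transcript length and library size, so levels of different genes can be set side by side.

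All 9 members were expressed above the filter of a mean of 0.5 FPKM, and they covered a wide range of levels. Dusp8 stood highest, with a mean of 29.9 FPKM over the 6 libraries and a range of 25.6 to 35.0 FPKM that did not overlap that of the next member. Dusp14 (19.3 FPKM), Dusp7 (16.5 FPKM), Dusp6 (15.0 FPKM) and Dusp1 (10.9 FPKM) followed with overlapping ranges. Dusp14 was above Dusp7 in 5 of 6 libraries, Dusp7 above Dusp6 in 4, Dusp6 above Dusp1 in 5 and Dusp1 above Dusp5 in 6. Dusp5 (5.21 FPKM) and Dusp4 (4.12 FPKM) overlapped as well, and the lowest pair, Dusp10 (1.63 FPKM) and Dusp16 (1.46 FPKM), lay below both in each library without a fixed order between them. The typical members Dusp2 and Dusp9, which are not in the set, averaged 0.448 and 0.423 FPKM and were not tested.

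**Figure D1:**
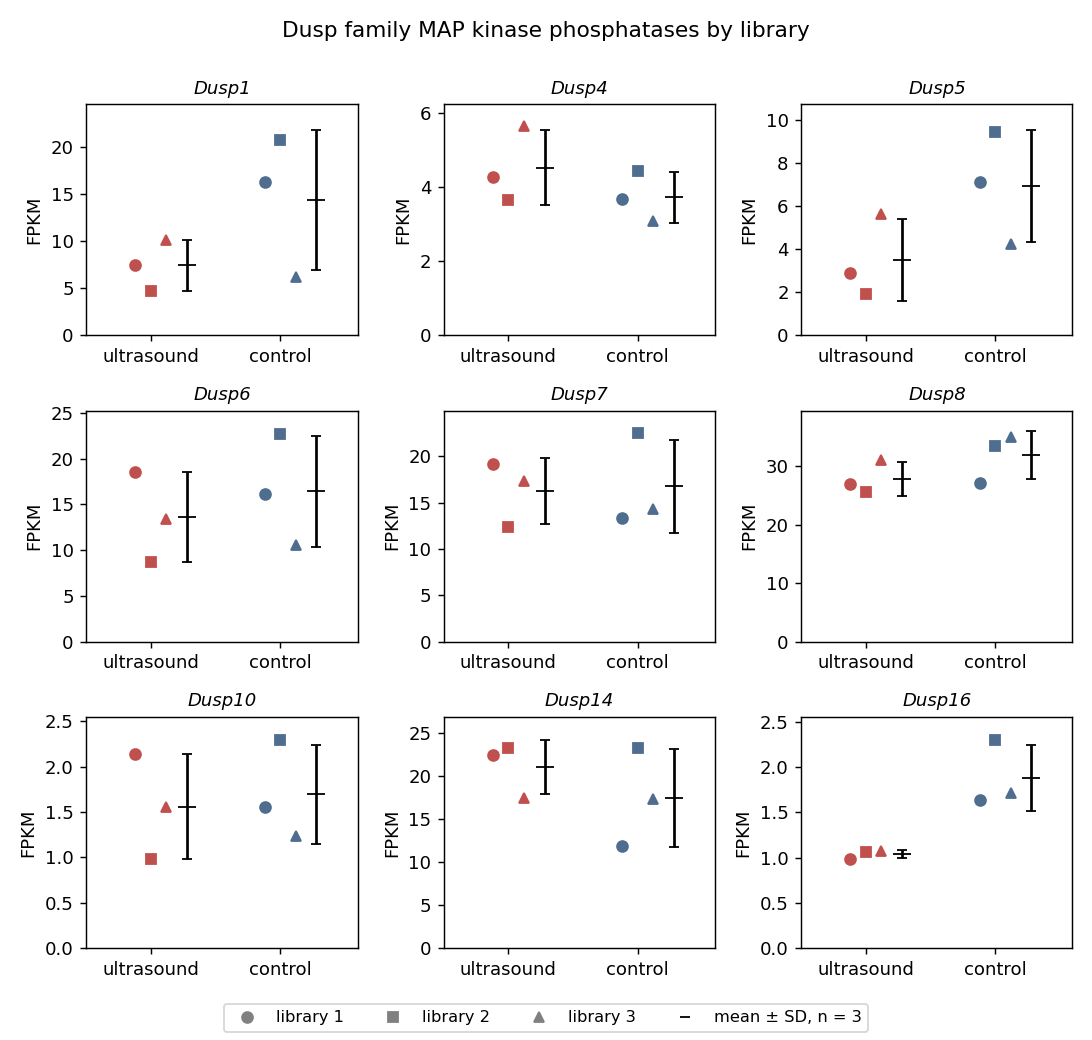
FPKM of the 9 members in each library (y axis from 0, a scale per gene), with ultrasound libraries left of controls, marker shape for the library number, and a bar for the mean ± SD of 3 libraries. Dusp16 is the member whose groups do not overlap, with 0.985 to 1.07 FPKM in ultrasound libraries and 1.64 to 2.30 FPKM in controls. Groups did not overlap for 11.3% of all tested genes.

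Dusp16 was lower in every ultrasound library than in every control, as were 5.66% of all tested genes. Dusp16 (ENSMUSG00000030203), also known as MKP7, is a JNK- and p38-directed phosphatase listed in the table on chromosome 6 (minus strand, 134692431 to 134769588). Gene intervals of the table may follow another build than the GRCm38.p6 of the promoters, so positions from the table and from the promoters cannot be compared. Its level was 0.985, 1.07 and 1.07 FPKM in ultrasound libraries 1 to 3, against 1.64, 2.30 and 1.71 FPKM in controls 1 to 3. The ultrasound libraries sat within a narrow band, while control 2 was the highest and controls 1 and 3 lay close together. These levels rest on 378, 426 and 400 counts in ultrasound libraries and 809, 1224 and 573 counts in controls. The means were 1.04 ± 0.0473 FPKM with ultrasound and 1.88 ± 0.362 FPKM in controls (SD, n = 3 each), and the edgeR log2 fold change was -0.81 (SE 0.20).

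The other members that prefer JNK and p38 did not separate the groups. Dusp8, a phosphatase of neurons and heart, had 26.9, 25.6 and 31.2 FPKM in ultrasound libraries and 27.2, 33.4 and 35.0 FPKM in controls, a log2 fold change of -0.16 (SE 0.14). It was also the steadiest member, with a coefficient of variation of 13.0% over the 6 libraries. Dusp10, also known as MKP5, had 2.14, 0.983 and 1.55 FPKM in ultrasound libraries and 1.56, 2.29 and 1.23 FPKM in controls, a log2 fold change of -0.09 (SE 0.36). Within a library, where scaling cancels, the log2 ratio of Dusp16 to Dusp8 FPKM was -4.77, -4.58 and -4.87 with ultrasound and -4.06, -3.86 and -4.35 in controls, without overlap. As Dusp8 varied little, this ratio mostly restates the Dusp16 values and is not a separate result. The log2 ratio of Dusp16 to Dusp10 FPKM was -1.12, 0.12 and -0.54 with ultrasound and 0.07, 0.01 and 0.47 in controls, so the groups overlapped on that ratio.

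In the nuclear inducible class, Dusp1 and Dusp5 had lower means with ultrasound while Dusp4 had a higher one, and the groups overlapped for all 3. Dusp1 (ENSMUSG00000024190), also known as MKP1, is an early response phosphatase acting on p38, JNK and ERK. It had 7.47, 4.76 and 10.2 FPKM in ultrasound libraries, against 16.2, 20.8 and 6.23 FPKM in controls 1 to 3. Controls 1 and 2 lay above each ultrasound library, whereas control 3 lay below ultrasound 1 and 3. The means were 7.47 ± 2.71 FPKM with ultrasound and 14.4 ± 7.45 FPKM in controls (SD, n = 3 each), with a log2 fold change of -0.92 (SE 0.45).

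Dusp5 (ENSMUSG00000034765), a nuclear phosphatase specific to ERK, showed a similar order of libraries. It had 2.91, 1.94 and 5.63 FPKM with ultrasound, against 7.13, 9.42 and 4.22 FPKM in controls. Ultrasound 3 lay above control 3, which was the only overlap. The means were 3.49 ± 1.91 FPKM with ultrasound and 6.92 ± 2.60 FPKM in controls (SD, n = 3 each), with a log2 fold change of -0.96 (SE 0.42). Across the 6 libraries the highest Dusp5 level was 4.86 times the lowest, and for Dusp1 this ratio was 4.36, the widest spans of the 9 members. Dusp4, also known as MKP2, had 4.26, 3.65 and 5.63 FPKM with ultrasound and 3.66, 4.43 and 3.07 FPKM in controls, a log2 fold change of 0.31 (SE 0.23).

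The table's interval for Dusp1 on chromosome 17 (minus strand, 26724564 to 26781102) overlaps Ergic1 on the opposite strand, which averaged 12.5 FPKM. The sources used here do not say whether the authors' counting used strand, so reads from the shared stretch cannot be assigned with certainty. The other overlapping genes of the members averaged under 0.5 FPKM.

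The groups also overlapped for both cytoplasmic ERK phosphatases. Dusp6, also known as MKP3 and a feedback inhibitor of growth factor signalling, had 18.6, 8.74 and 13.4 FPKM with ultrasound and 16.2, 22.7 and 10.5 FPKM in controls, a log2 fold change of -0.25 (SE 0.32). Dusp7, its close relative, had 19.2, 12.4 and 17.3 FPKM with ultrasound and 13.4, 22.5 and 14.4 FPKM in controls, a log2 fold change of -0.01 (SE 0.22). For both, control 2 was the highest library and ultrasound 2 the lowest. The atypical Dusp14, also known as MKP6, had 22.5, 23.3 and 17.5 FPKM with ultrasound and 11.8, 23.3 and 17.3 FPKM in controls, a log2 fold change of 0.32 (SE 0.25). Control 1 was low for Dusp14, and the remaining 5 libraries lay between 17.3 and 23.3 FPKM.

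As a set, 7 of the 9 members had a lower and 2 a higher estimate with ultrasound, with a median log2 fold change of -0.16, against -0.01 over 15740 tested genes, of which 48.8% were higher. In the edgeR quasi-likelihood test, 0 of the 9 passed an adjusted p of 0.05, a threshold that 0.00635% of all tested genes passed. At an unadjusted p under 0.05, edgeR counted 1 of the 9 and 4.77% of all genes. DESeq2 passed 0 of the 9 with adjustment, where it passed 0.184% of all genes, and counted 3 of the 9 at an unadjusted p under 0.05, against 5.66% of all genes. The groups did not overlap for 1 member, Dusp16, and for 11.3% of all tested genes (5.66% lower and 5.69% higher with ultrasound). Because this comparison was in view when the family was chosen, these counts are descriptive.

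**Figure D2:**
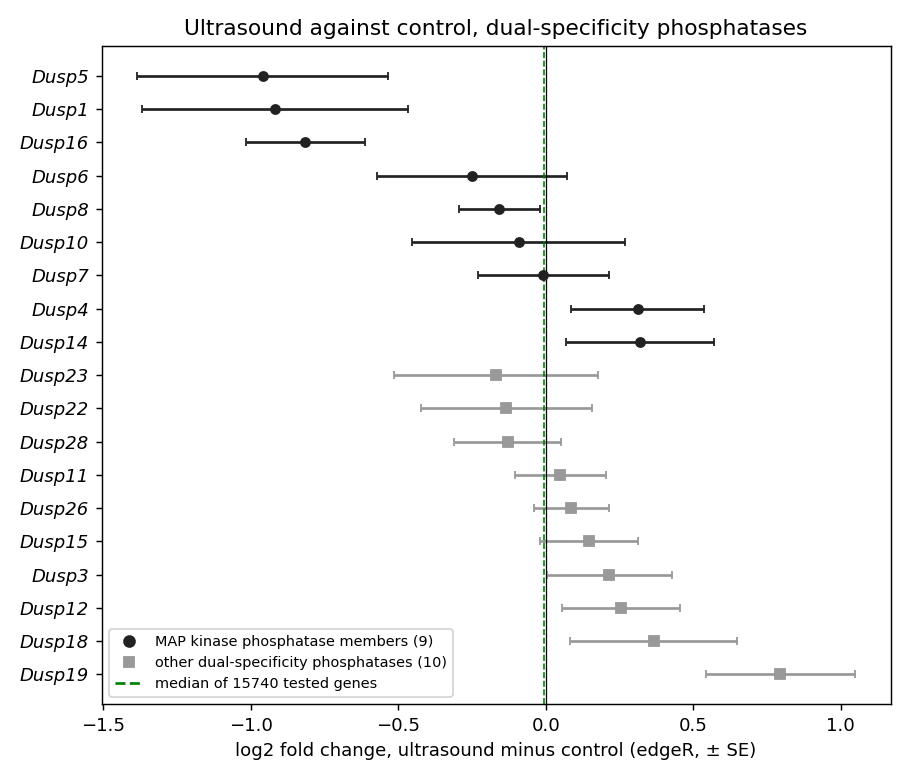
Log2 fold change of ultrasound minus control with its SE (edgeR, x axis) for the 9 members (black circles, upper rows) and the 10 other dual-specificity phosphatases tested (grey squares), with the median of 15740 genes dashed. Dusp5, Dusp1 and Dusp16 lie between -0.96 and -0.81, and the remaining members between -0.25 and 0.32.

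Several members shared their highest and lowest libraries, and the variation was not split into parts for groups and libraries. Control 2 had the highest level of 6 members (Dusp1, Dusp5, Dusp6, Dusp7, Dusp10 and Dusp16) and the second highest of the other 3. Ultrasound 2 had the lowest FPKM of Dusp1, Dusp5, Dusp6, Dusp7, Dusp8 and Dusp10. All library ranks given here are by FPKM, and ranks on TMM-scaled CPM can differ. For Dusp8, ultrasound 2 had 6374 counts (TMM factor 0.925) and ultrasound 1 had 6453 (TMM factor 1.02), so its lowest library depends on the scale. Dusp6 and Dusp10, which belong to different classes, ranked the 6 libraries in the same order: control 2, ultrasound 1, control 1, ultrasound 3, control 3 and ultrasound 2. Ultrasound 2 and control 3, low for most of these genes, were also the libraries richest in 18S RNA (9.18% and 4.68% of counts), and the part of 18S content in these levels was not tested. Leaving out both libraries, a choice made after seeing the data, gave log2 fold changes of -1.07 for Dusp1, -0.95 for Dusp5 and -0.94 for Dusp16.

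Immediate early genes, which neuronal activity induces through MAP kinases among other routes, were compared with the members library by library. Their score, the mean of the z-scored log2 CPM of 14 genes, was -0.23, -0.61 and 0.45 in ultrasound libraries 1 to 3, against 0.03, 1.31 and -0.95 in controls 1 to 3. Control 2 was the highest and control 3 the lowest, so the control group held both extremes. Fos, a subunit of AP-1, had 7.10, 3.89 and 13.6 FPKM with ultrasound and 14.9, 32.1 and 5.77 FPKM in controls. Arc, a synaptic plasticity protein, had 45.6, 15.6 and 63.1 FPKM with ultrasound and 45.2, 201 and 24.0 FPKM in controls. Nr4a1, an orphan nuclear receptor, had 26.0, 14.3 and 26.7 FPKM with ultrasound and 31.7, 63.0 and 25.5 FPKM in controls. In these 3 genes, as in Dusp1 and Dusp5, control 2 was the highest library and ultrasound 2 the lowest. Egr1 and Npas4 differed in this respect: Egr1 had 58.9, 34.1 and 43.7 FPKM with ultrasound and 39.0, 123 and 30.4 FPKM in controls, and Npas4 had 8.48, 3.37 and 6.78 FPKM with ultrasound and 5.78, 8.32 and 2.32 FPKM in controls, both with the lowest level in control 3.

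Of the 9 members, Dusp1 had the highest correlation with this score. Over the 6 libraries its Pearson r was 0.85 (exact permutation p = 0.0417, two-sided) and its Spearman rho 0.89 (exact permutation p = 0.0333), with adjusted p of 0.18 and 0.245 over the 9 members. Without controls 2 and 3, the libraries farthest from the median score, r was 0.70 over 4 libraries. Dusp6 (r = 0.78), Dusp7 (0.75), Dusp5 (0.75), Dusp10 (0.73) and Dusp4 (0.62) were lower, with exact permutation p between 0.0611 and 0.203 and adjusted p between 0.18 and 0.304. Their Spearman rho ranged from 0.60 to 0.77 (exact permutation p between 0.103 and 0.242, adjusted p of 0.245 to 0.363). Without controls 2 and 3, r was 0.83 for Dusp5 and 0.70 for Dusp4, and 0.42, 0.39 and 0.41 for Dusp6, Dusp7 and Dusp10. Dusp16 (r = 0.39, rho = 0.14), Dusp8 (r = 0.11, rho = -0.03) and Dusp14 (r = 0.05, rho = 0.09) had exact permutation p of 0.472 or more, and r without controls 2 and 3 was 0.09, 0.73 and -0.61. None of the 9 passed an adjusted p of 0.05 by Pearson or Spearman. Each group of 3 libraries was too small for a value of its own, and both measures come from the same libraries. The permutations ignored the groups, so a difference between groups enters these correlations. As the family was chosen on values of these same libraries, the correlations and their p-values are descriptive.

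**Figure D3:**
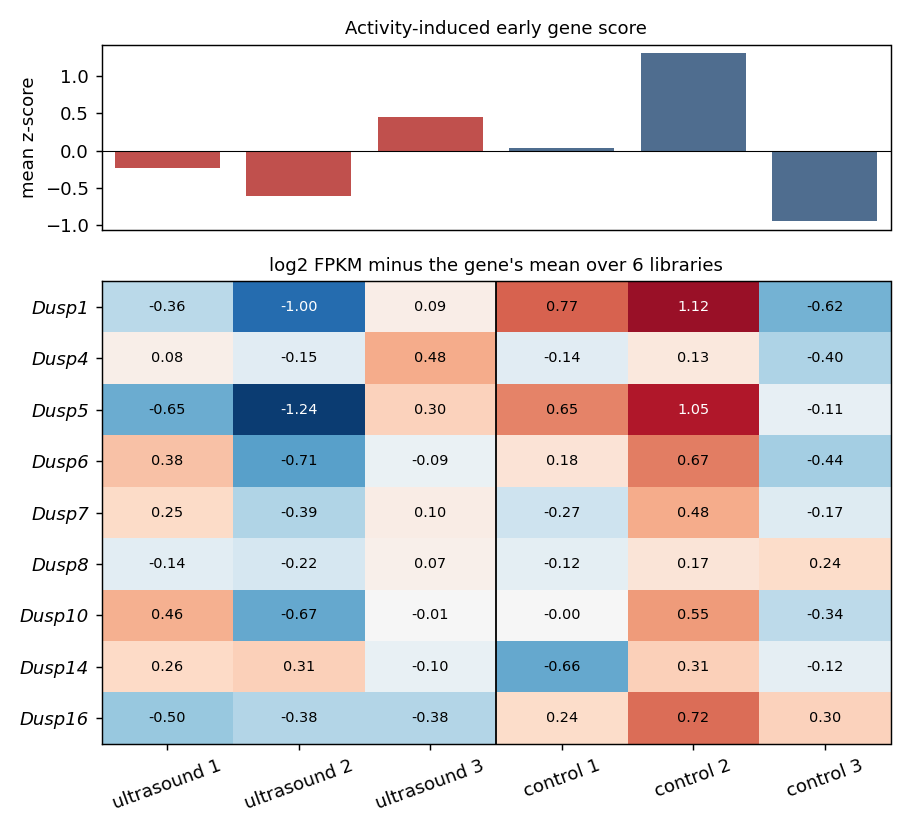
Upper panel, immediate early gene score of each library (mean z-score of 14 genes), and lower panel, log2 FPKM of each member minus its mean over the 6 libraries (colour and printed value), with ultrasound libraries left of the line and controls right of it. Control 2, with a score of 1.31, is the highest library of 6 members, while Dusp16 is below its mean in all 3 ultrasound libraries and above it in all 3 controls.

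Transcripts of other cell types and regions were also uneven across these libraries. Blood markers (5 genes) summed to 174, 127 and 7.68 FPKM in ultrasound libraries 1 to 3 and 9.76, 15.2 and 152 FPKM in controls 1 to 3, so the 3 libraries lowest in Dusp1 and Dusp5 (ultrasound 1, ultrasound 2 and control 3) were the richest in blood transcripts. All 4 tested blood markers had a higher estimate with ultrasound. Striatal markers (6 genes, all with a higher estimate) summed to 229, 222 and 335 FPKM in ultrasound libraries and 172, 97.0 and 319 FPKM in controls, so control 2, the highest library of 6 members, was the lowest in these markers. Neutrophil markers summed to 1.27, 6.44 and 5.08 FPKM in ultrasound libraries and 16.4, 28.4 and 1.62 FPKM in controls 1 to 3, so the 2 controls highest in Dusp1 and Dusp5 were also the highest in these markers. In control 3, where the marker sum was 1.62 FPKM, Dusp16 stood at 1.71 FPKM, above each ultrasound library. Of the 6 markers, 4 were tested and all 4 had a lower estimate with ultrasound, and Ly6g, a defining neutrophil antigen, was at 0 in 5 libraries and at 0.0589 FPKM in control 2. Camp, the other untested marker, had 0, 0.487 and 0.417 FPKM with ultrasound and 0, 0.120 and 0.117 FPKM in controls. Oligodendrocyte precursor markers summed to 36.3 to 45.9 FPKM with ultrasound and 26.7 to 35.9 FPKM in controls, and all 5 had a higher estimate. The part of any of these cell types or regions in the members' levels was not tested, and in tissue RNA fewer cells of a type cannot be told apart from less RNA per cell.

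By likeness of pattern over the 6 libraries, measured as Pearson r of log2 CPM among 13439 other genes with a mean of at least 1 FPKM, the genes most like Dusp16 were Dhodh (r = 0.99), Zfp276 (0.98) and Map2k3 (0.98). The genes most like Dusp1 were Tubgcp6, Rgl2 and Git2 (each 0.98), and those most like Dusp6 were Gria4 (0.99), Plxdc1 (0.98) and Ctdsp2 (0.98). With only 6 libraries such values are common: 75 genes exceeded an r of 0.9 with Dusp16, 104 with Dusp1 and 126 with Dusp6.

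The rest of the MAP kinase pathway gave no gene past the threshold. Of 116 genes in 9 lists by role, 111 were found and 99 tested, of which 53 had a higher and 46 a lower estimate with ultrasound, with a median log2 fold change of 0.03. In edgeR 0 of the 99 passed the adjusted threshold and 6 had an unadjusted p under 0.05, 3 higher and 3 lower, against 4.77% of all tested genes. DESeq2 passed 0 of them and counted 9 without adjustment, against 5.66% of all genes. Without overlap of the groups, 4 of the 99 were higher and 5 lower with ultrasound, against 5.69% and 5.66% of all tested genes.

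The kinase genes named here by level, whose products the members act on, had overlapping groups. Mapk3 (ERK1) averaged 71.5 ± 19.0 FPKM with ultrasound and 76.3 ± 13.4 FPKM in controls (SD, n = 3 each). The JNK genes Mapk8, Mapk9 and Mapk10 averaged 7.53, 8.69 and 22.7 FPKM with ultrasound and 7.44, 8.08 and 23.2 FPKM in controls. Mapk14, p38 alpha, averaged 14.0 ± 4.35 FPKM with ultrasound and 9.97 ± 3.20 FPKM in controls (SD, n = 3 each). Among the 11 MAP kinases tested, 8 had a higher estimate and 3 a lower one. Mapk12, p38 gamma, had the smallest p and was lower in each ultrasound library (1.27 to 1.57 FPKM, against 2.04 to 2.42 FPKM in controls), with a log2 fold change of -0.63 (SE 0.24) that did not pass (edgeR adjusted p = 0.973). Mapk4, an atypical MAP kinase, had an estimate of 0.55 (SE 0.29) on the log2 scale, likewise with an edgeR adjusted p of 0.973. It was higher in each ultrasound library on the CPM scale, while the groups overlapped in FPKM.

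Upstream of them, Map2k3, a MAP2 kinase that activates p38, had the lowest estimate of the 7 MAP2 kinases. It had 1.63, 2.21 and 1.93 FPKM with ultrasound and 3.29, 4.41 and 3.11 FPKM in controls, without overlap, and its log2 fold change of -0.85 (SE 0.24) did not pass (edgeR adjusted p = 0.973). Like Dusp16, it was highest in control 2 and lowest in ultrasound 1. Map2k7, an activator of JNK, had 18.5, 6.84 and 6.56 FPKM with ultrasound and 7.96, 8.25 and 6.54 FPKM in controls, so ultrasound 1 alone stood above the rest. In the Ras, Raf and MAP3 kinase list, 8 of 18 tested genes had a higher and 10 a lower estimate, and Map3k12, the dual leucine zipper kinase of injured axons, had the smallest p with 13.7, 10.7 and 11.3 FPKM in ultrasound libraries, against 15.5, 15.3 and 15.1 FPKM in controls. Its log2 fold change was -0.33 (SE 0.12), and that of Map3k4, an activator of p38 and JNK kinases, -0.32 (SE 0.14), both with an edgeR adjusted p of 0.973.

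Negative regulators and targets outside the 9 members also stayed short of the threshold. Of 10 other dual-specificity phosphatases tested, 7 had a higher and 3 a lower estimate, with a median of 0.12. Dusp19, an atypical phosphatase that binds JNK pathway kinases, had 2.90, 3.21 and 3.56 FPKM with ultrasound and 2.08, 2.22 and 1.40 FPKM in controls, without overlap and opposite in direction to Dusp16. Its log2 fold change was 0.80 (SE 0.25, edgeR adjusted p = 0.973), and that of Dusp18 was 0.37 (SE 0.28, edgeR adjusted p = 0.976). Ptpn5, the striatal-enriched tyrosine phosphatase of ERK and p38, had an estimate of 0.15 (SE 0.12) on the log2 scale and Ptprr, a receptor-type relative, one of 0.04 (SE 0.23). Of 11 ERK feedback inhibitors and targets, 8 had a higher and 3 a lower estimate, with a median of 0.17, and Ccnd1, a cyclin induced by ERK, (0.60, SE 0.29) and the ETS factor Etv4 (0.48, SE 0.25) had the smallest p.

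Scaffolds and effectors were divided in direction. Of 10 scaffolds, 6 had a higher and 4 a lower estimate, and Ksr2, a scaffold of the Raf to ERK cascade, had 4.47, 4.14 and 4.75 FPKM with ultrasound and 3.94, 3.42 and 3.09 FPKM in controls, without overlap. Its log2 fold change was 0.39 (SE 0.14) and that of Sh3rf1, a JNK scaffold, 0.33 (SE 0.16), both with an edgeR adjusted p of 0.973. Of 16 effectors, 7 had a higher and 9 a lower estimate, and the kinases Rps6ka2, activated by ERK, and Mapkapk2, activated by p38, had log2 fold changes of 0.36 (SE 0.15) and -0.23 (SE 0.14). Of the 14 immediate early genes, 4 had a higher and 10 a lower estimate, with a median of -0.40, and Nr4a1 (-0.81, SE 0.37) and Ier2 (-0.62, SE 0.34) had the smallest p. The groups overlapped for all 14.

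**Figure D4:**
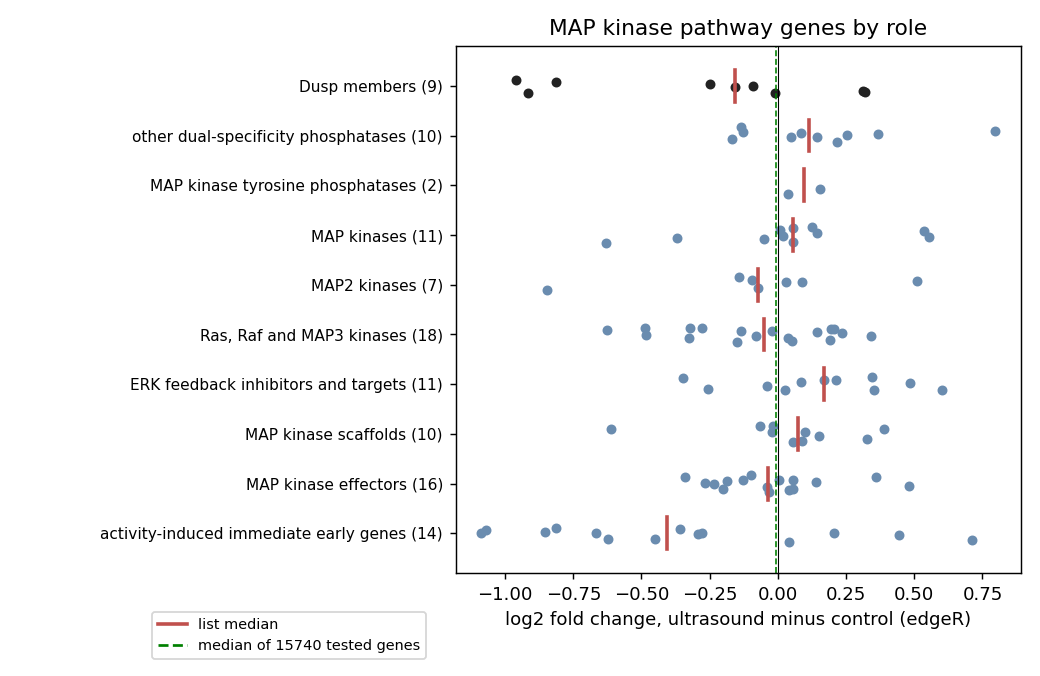
Log2 fold change of ultrasound minus control (edgeR, x axis) for each tested gene of the pathway lists, 1 row per list with the number tested, a red bar for the list median and a dashed line for the median of 15740 genes. The 9 members have a median of -0.16 and the immediate early genes one of -0.40, while the other 8 lists have medians between -0.07 and 0.17.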

How the data were processed

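RNA of the motor cortex was measured in 3 ultrasound and 3 control libraries. Libraries were made from poly(A) RNA with dUTP marking and sequenced as read pairs, per the labels' protocols. Build mm10, HISAT2 2.0.4, StringTie 1.3.4d, cutadapt 1.9, edgeR and DESeq2 are named in the submitters' processing notes, with no role for each. Per the file headers, each library has 1 column of raw counts and 1 of FPKM, both computed by the authors. Another 12 columns were not used. The sources used here name no counting tool, strand setting or annotation. Of 32701 gene identifiers shared with GENCODE M21 on GRCm38, 619 had the same start and end there, among them 0 of the 9 members. The build of the table's intervals is therefore uncertain although the notes name mm10, the intervals are printed as deposited, and promoter coordinates are those of RefSeq on GRCm38.p6.

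Genes with a mean of at least 0.5 FPKM (15740) were fitted with edgeR 4.0.16 (quasi-likelihood, TMM scaling, robust, no covariate) in R 4.3.3, and p-values were adjusted by Benjamini-Hochberg over all of them. DESeq2 1.42.0 and limma 3.58.1 on log2(FPKM + 0.5) or log2(FPKM + 0.1) were alternatives, as were RLE scaling, other filters, the replicate number as a block and leaving out each library. SE is the log2 fold change over the square root of the F statistic. Overlap of groups was judged on TMM-scaled CPM. The score and correlations used log2(CPM + 0.5), with exact permutation tests in scipy 1.17.1.

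Members, lists, motifs and printed promoters were chosen with earlier results of these data known. Named genes are all members, 2 genes of smallest p per list, selected kinases and early genes, and 3 most alike genes for Dusp1, Dusp6 and Dusp16, skipping predicted genes; 1 gene is not reported here. No 2 libraries were identical, and PCR copies were not resolved by molecular identifiers.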

Additional observations from a re-analysis of the deposited data

How the results depend on the processing

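The number of members past the threshold was 0, and that of pathway list genes was 0, in each of the 14 alternatives run. The count over all genes was 1 in the edgeR fit, 29 in DESeq2, 0 in limma on log2(FPKM + 0.5), 0 in limma on log2(FPKM + 0.1), 2 with no filter and 8 without control 3 and ultrasound 2. It ranged from 1 to 4 with 1 library left out, and was 4 without control 2 and 4 without control 3. The cause of these differences was not tested. The member correlations with the immediate early gene score gave 0 of 9 past the threshold with Spearman, with log2(FPKM + 0.5) and without the 2 farthest libraries. With 4 libraries left, an exact permutation p cannot fall under 0.05, so the last of these settings could not have given a pass. Dusp16 kept its direction in 14 of 14 alternatives (-0.94 to -0.62), as did Dusp1 (-1.27 to -0.57), Dusp5 (-1.47 to -0.69), Dusp8 (-0.25 to -0.06), Dusp4 (0.14 to 0.45) and Dusp14 (0.11 to 0.57). The size of the Dusp1 difference moved with single libraries of both groups. It was -0.57 without control 2, -1.27 without control 3, -0.70 without ultrasound 2 and -1.19 without ultrasound 3. Dusp5 had -1.47 without ultrasound 3. Dusp6 (-0.51 to 0.04), Dusp7 (-0.14 to 0.25) and Dusp10 (-0.36 to 0.18) changed sign in 1, 4 and 2 of the 14 alternatives. With the replicate number as a block, 1 gene passed over all genes, 0 members did, and Dusp16 had -0.80. Deviations of same-numbered libraries correlated at -0.06, -0.03 and 0.08, so the labels' numbers were not taken as a pairing. Dusp10 had the fewest counts (154 to 476 per library), which limits the precision of its values. Counts were also low for Dusp4 (360 to 829) and Dusp16 (378 to 1224), and for Dusp5 in some libraries (246 to 1589).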
